A study of Mus musculus with 9 samples.

Results

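The cadherins and the protocadherins are calcium-dependent adhesion proteins of the cell surface, and their genes were followed in RNA bound to tagged ribosomes of the mouse dorsal striatum. A gene was counted as a member when it was protein coding and its symbol began with Cdh and a digit or with Pcdh. This gave 92 genes of the 47729 listed, of which 5 were classical type I cadherins, 13 classical type II cadherins, 5 other cadherins, 57 clustered protocadherins (14 alpha, 22 beta and 21 gamma) and 12 non-clustered protocadherins. The rule used no measured value.

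All mice were C57BL/6 animals of postnatal day 28 with the RiboTag (RT), a ribosomal protein that carries a hemagglutinin (HA) tag once Cre recombinase has acted. In every group Cre was under the control of the D1 dopamine receptor gene (D1-Cre), which marks the medium spiny neurons of the direct pathway, so the tag and any deletion were limited to cells in which this Cre was active. The control group was D1-Cre-RT. Both other groups were D1-Cre-flTrkB-RT, in which the floxed TrkB gene (Ntrk2, the receptor of the growth factor BDNF) can be deleted by the same Cre, and they were split by whether the mice showed stereotypy, a repetitive behavior, or no stereotypy. Each group had 3 libraries, described as biological triplicates with the cell type named as enriched, and neither sex nor batch is given. No RNA from before the precipitation was analysed here, so the enrichment was not measured. In bulk libraries like these, fewer cells of a type and less RNA per cell cannot be told apart.

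Classical cadherins hold cells together by binding the same or a similar cadherin on the facing membrane, and through catenins they are tied to the actin cytoskeleton. At synapses they help to align the membranes on either side of the cleft. Clustered protocadherins lie in tandem arrays of alternative first exons, each with its own promoter; a neuron uses a small selection of them, and the resulting surface identity lets branches of the same cell recognise and avoid each other. The choice of promoter depends on the DNA-looping factors CTCF and cohesin and on silencing by DNA methylation and SETDB1. Non-clustered protocadherins bind more weakly, act on the actin regulators of the WAVE complex, and mark zones and pathways in the developing striatum.

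The libraries held 27103152 to 40578512 reads, and within a group the log2 levels of all tested genes correlated at 0.980 to 0.995 across genes. Ntrk2 lay at 319, 385 and 487 CPM (counts per gene relative to all reads of its library) in the controls. In the TrkB-deleted mice it lay at 34.3, 43.9 and 40.7 CPM where stereotypy was seen and at 23.4, 14.1 and 19.2 CPM where it was not, which matches the genotype labels. The TrkB-deleted groups also differed from each other in Ntrk2, without overlap. It was higher with stereotypy by 1.049 (log2 difference, limma adjusted p = 0.0206, with the fit described below). The part of this remaining Ntrk2 in other differences between these groups was not tested, nor was it tested which cells it came from. Here and below, 3 values are given in the order of replicates 1, 2 and 3. Markers of medium spiny neurons were abundant in every library, with a summed level of 8294 to 12846 CPM over 6 genes. Markers of other cells were present as well, and no marker listed for any cell type was at 0 in all 9 libraries. The 10 astrocyte markers summed to 636 to 667 CPM in the stereotypy group, above the 449 to 558 CPM of the controls and the 449 to 564 CPM of the group without stereotypy. For the 8 vascular markers the sums were 33.2 to 85.9, 10.2 to 26.9 and 13.7 to 25.95 CPM in this order.

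Of the 92 members, 81 reached at least 1 CPM in at least 3 libraries and were tested. The other 11 were Cdh1, Cdh3, Cdh16, Cdh17, Cdh19, Cdh23, Cdh26, Pcdha4, Pcdha8, Pcdhb1 and Pcdh12, of which Cdh16 and Pcdha4 were listed at 0 in all libraries. Most of the exon sequence of Pcdha4 is shared with an overlapping gene model on the same strand (Gm37013), itself listed at 0, so a value for Pcdha4 may have been lost in counting. Levels are compared between genes as CPM per kilobase of exon sequence that no other gene on the same strand shares. On this scale the highest means over the 9 libraries were those of Pcdh1 at 25.5, Cdh13 at 24.96, Pcdhgc5 at 21.2, Pcdh17 at 17.02, Cdh9 at 14.9 and Cdh8 at 14.2 CPM per kilobase. The alpha cluster was low, from at most 4.66 for Pcdhac2 down to 0.417 CPM per kilobase among its tested genes, while the beta cluster reached 11.7 for Pcdhb20.

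Differences are given as differences of mean log2(CPM + 1), a scale that understates changes of genes at low levels, with the standard error (SE) of a limma fit to all 9 libraries. A gene was said to rise or fall when its p-value, adjusted by the Benjamini-Hochberg method over all 13695 genes tested, was below 0.05. With stereotypy against control, 4 of the 81 members rose and none fell by limma, beside 24 members at an unadjusted p below 0.05, 8 rising and 1 falling by DESeq2, and 2 rising and none falling by edgeR. Among all genes 5.1% were called in either direction, 3.58% rising and 1.53% falling. Without stereotypy against control, 1 member rose and 3 fell, against 6.77% of all genes called (3.76% rising and 3.01% falling). With stereotypy against no stereotypy, 5 rose and 2 fell, against 10.2% of all genes (6.61% rising and 3.6% falling). With both TrkB-deleted groups against control, 1 rose, against 5.72% of all genes (3.67% rising and 2.05% falling). The F test over the 3 groups called 8 members, against 14% of all genes. The members' share of calls was therefore close to or below that of all genes in each comparison. The first and the second comparison share the control libraries.

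**Figure D1:**
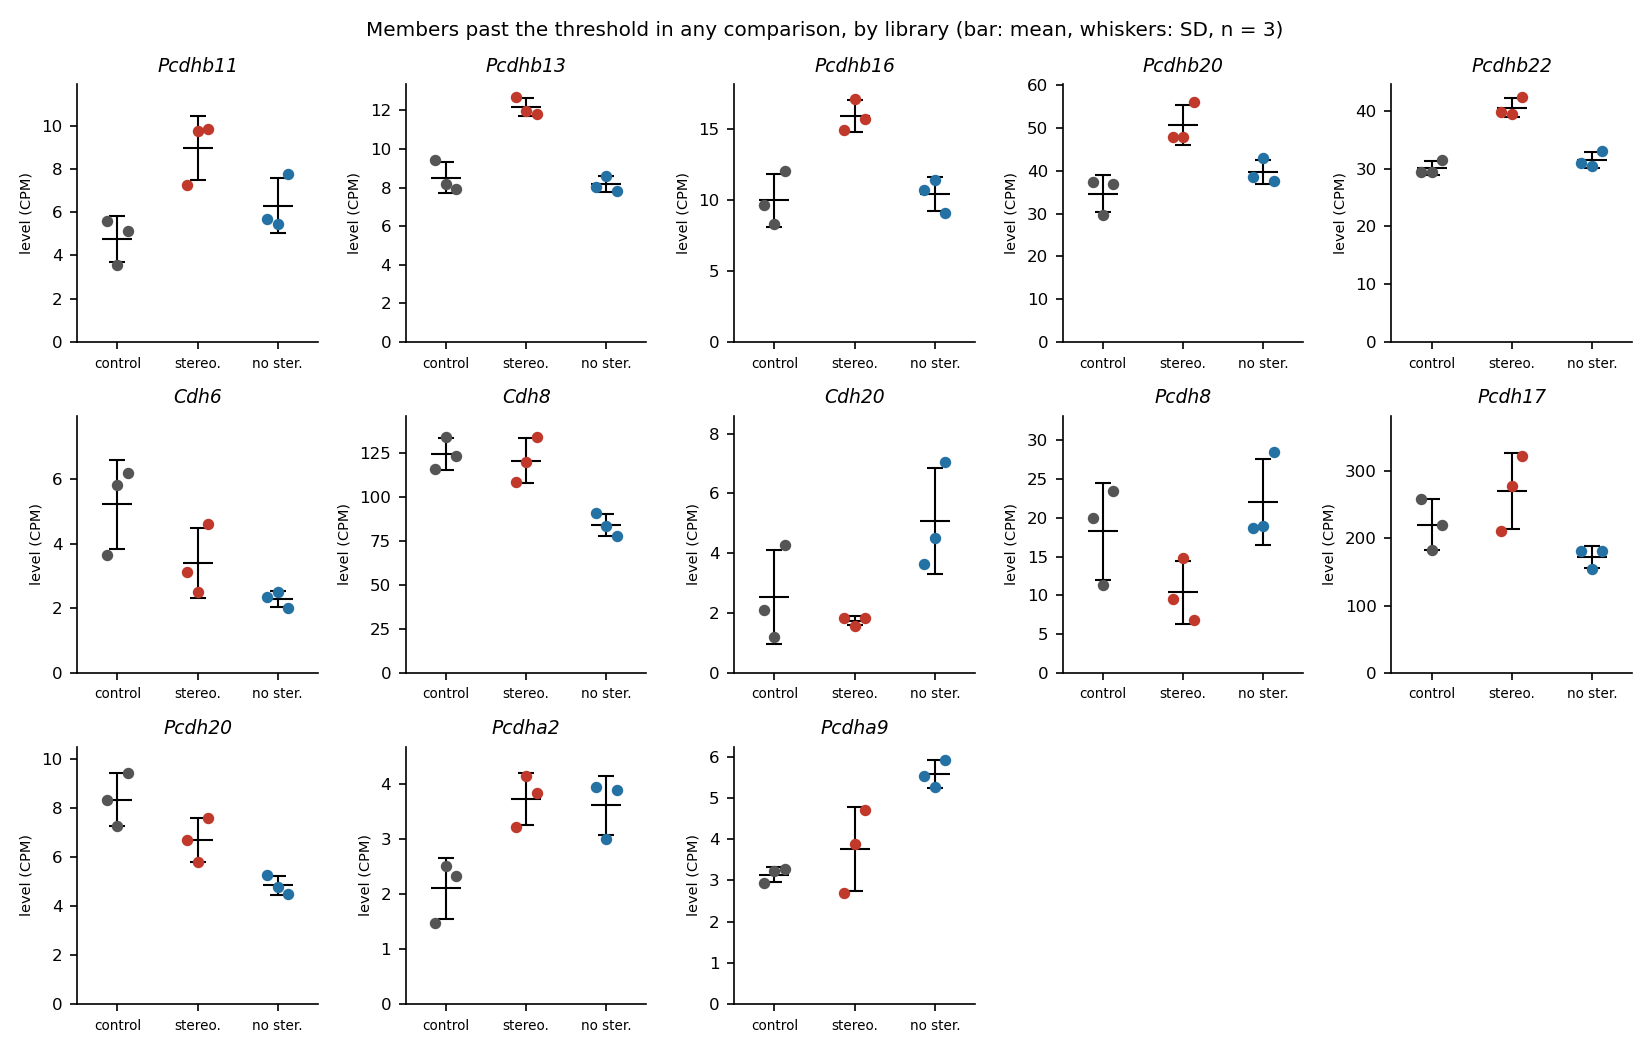
Level in CPM (vertical axis, linear from 0) of the 13 members that passed the threshold in any of the comparisons, by group (horizontal axis: control, TrkB-deleted with stereotypy, TrkB-deleted without stereotypy). Points are libraries, bars are means and whiskers are SD (n = 3); Pcdhb22 lies at 29.4 to 31.5 CPM in the controls and at 39.4 to 42.5 CPM with stereotypy, while Cdh8 lies at 77.9 to 90.7 CPM without stereotypy, below all other libraries.

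For 4 of the 7 members that differed between the groups with and without stereotypy, the promoter is shown as the 250 bases before the start of transcription, as these were the 4 with a window among the sequences used here. They are RefSeq windows of GRCm38.p6, written 5′ to 3′ on the strand of the gene. The cadherin gene Cdh8 (chr8:99416472-99416721, minus strand) and the protocadherin gene Pcdh17 (chr14:84443313-84443562, plus strand) were higher with stereotypy than without it; Pcdh8 (chr14:79771313-79771562, minus strand) and Cdh20 (chr1:104768270-104768519, plus strand) were lower. Capitals mark a GC box (GGGCGG, or CCGCCC where it lies on the other strand) in Cdh8 and Pcdh17 and a TATA box (TATAAA) in Pcdh8, and the Cdh20 window held no motif searched.
Cdh8: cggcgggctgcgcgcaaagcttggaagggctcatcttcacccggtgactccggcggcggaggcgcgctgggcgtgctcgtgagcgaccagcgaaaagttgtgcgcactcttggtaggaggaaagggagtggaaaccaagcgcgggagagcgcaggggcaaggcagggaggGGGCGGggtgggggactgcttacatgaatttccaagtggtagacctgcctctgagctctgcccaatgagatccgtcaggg
Pcdh17: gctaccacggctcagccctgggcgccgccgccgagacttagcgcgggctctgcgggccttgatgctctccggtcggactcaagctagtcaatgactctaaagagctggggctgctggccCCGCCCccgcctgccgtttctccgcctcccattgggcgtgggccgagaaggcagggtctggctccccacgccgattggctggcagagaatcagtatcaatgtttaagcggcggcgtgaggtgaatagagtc
Pcdh8: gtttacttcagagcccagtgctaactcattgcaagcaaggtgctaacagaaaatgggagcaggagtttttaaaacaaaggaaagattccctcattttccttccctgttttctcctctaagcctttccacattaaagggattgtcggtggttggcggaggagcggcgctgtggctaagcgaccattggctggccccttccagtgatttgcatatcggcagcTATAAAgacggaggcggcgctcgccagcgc
Cdh20: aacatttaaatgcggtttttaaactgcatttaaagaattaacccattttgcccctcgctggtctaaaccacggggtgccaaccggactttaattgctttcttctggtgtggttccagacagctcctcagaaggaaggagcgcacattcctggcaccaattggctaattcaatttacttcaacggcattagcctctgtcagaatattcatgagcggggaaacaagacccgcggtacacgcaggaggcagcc
Windows were found for 22 of the member symbols, 25 windows in all. On either strand, the GC box was in 9 of these 25, the TATA box in 2 (Pcdh8 and Pcdh15), the E-box CACGTG in 1 (Cdh15) and the cAMP response element TGACGTCA in none. Of 32851 windows of the same length, 32.7% held the GC box, 12.4% the TATA box, 6.02% the E-box and 1.55% the cAMP response element. None of these motifs contains another, and a match describes letters only. The bases after the start of the Cdh20 window were not found in a transcript of the gene in the annotation used, so its start may not be the one used in these cells.

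Among the classical type I cadherins, which carry the conserved adhesion site of E-cadherin, the main member in these libraries was Cdh2 (N-cadherin, the general synaptic cadherin of neurons; mean 5.78 CPM per kilobase). Cdh2 was at 40.5, 27.9 and 44.7 CPM in the controls, 42.2, 46.7 and 42.4 CPM with stereotypy and 55.5, 48.04 and 71.7 CPM without stereotypy. All 3 libraries without stereotypy lay above all others, but the difference from control of 0.63 ± 0.18 (log2, SE) did not pass (limma adjusted p = 0.0633), nor did that of 0.24 ± 0.18 with stereotypy (adjusted p = 0.452). Cdh4 (R-cadherin; mean 3.38 CPM per kilobase) was at 24.2, 34.1 and 19.6 CPM in the controls, 22.5, 22.1 and 21.9 CPM with stereotypy and 20.7, 26.3 and 29.2 CPM without it. The groups overlapped, and the 95% intervals of the difference from control were -0.59 to 0.22 and -0.41 to 0.40 on the log2 scale. Cdh15 (M-cadherin, best known from muscle; mean 2.297 CPM per kilobase) was at 3.996, 7.27 and 0.767 CPM, 10.2, 7.17 and 7.45 CPM and 13.1, 9.86 and 7.42 CPM in the same order. Its spread among the controls was wide, and the difference of 1.38 ± 0.44 without stereotypy did not pass (adjusted p = 0.0945). Of the 3 type I genes tested, none passed in any comparison by the main limma fit or edgeR. Without stereotypy against control, 2 had an unadjusted p below 0.05, beside 3079 of 13695 genes, and DESeq2 called Cdh2. Some other limma fits did call type I genes there. Among these were Cdh15 without control replicate 2, Cdh2 without control replicate 3, and both genes with the replicate number as a block. Cdh1 (E-cadherin) and Cdh3 (P-cadherin), the epithelial members, were below the filter.

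The classical type II cadherins, a larger family whose members mark groups of neurons and their connections, held the call that was kept most often among all members, a lower level of Cdh8 without stereotypy. Of 16 calls of members over the comparisons, it was the 1 that passed whichever library was left out. Cdh8, studied for its place in the connections from cortex to striatum (chr8:99024471-99416471, minus strand; mean 14.2 CPM per kilobase), was at 116, 134 and 123 CPM in the controls, 108, 119.9 and 134 CPM with stereotypy and 90.7, 83.7 and 77.9 CPM without it. Each of the 3 libraries without stereotypy lay below each of the other 6. The difference without stereotypy from control was -0.56 ± 0.10 (log2, SE; limma adjusted p = 0.0105), and that with against without stereotypy was 0.51 ± 0.10 (adjusted p = 0.0225). With stereotypy against control, the interval of the difference was -0.27 to 0.18. The difference between the TrkB-deleted groups was lost without stereotypy replicate 2 or 3 or no stereotypy replicate 1 or 2 (adjusted p 0.0692 to 0.0893). With the mean marker level of glia and vessels as a covariate, the difference without stereotypy from control was -0.51 (adjusted p = 0.0721). With the trend over GC content and transcript length removed, that between the TrkB-deleted groups was 0.30 (adjusted p = 0.194).

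Cdh6, a type II cadherin of some developing brain regions (chr15:13028701-13173675, minus strand), was low in these libraries, at 3.64, 5.8 and 6.19 CPM in the controls, 3.12, 2.51 and 4.61 CPM with stereotypy and 2.35, 2.49 and 1.996 CPM without it. The libraries without stereotypy lay below all others, and the difference from control was -0.90 ± 0.22 (log2, SE; limma adjusted p = 0.0341). This call was lost without control replicate 2 or 3, stereotypy replicate 1 or any library without stereotypy (adjusted p 0.0533 to 0.105). A pseudocount of 4 in place of 1 gave a difference of -0.54. Cdh20 (chr1:104768529-104995481, plus strand) was at 2.11, 1.22 and 4.26 CPM, 1.83, 1.57 and 1.84 CPM and 3.64, 4.51 and 7.05 CPM in the same order of groups. It was lower with stereotypy than without it, with a difference of -1.10 ± 0.29 (limma adjusted p = 0.0413), while the controls overlapped both groups. Leaving out control replicate 1 or any TrkB-deleted library ended the call (adjusted p 0.0536 to 0.119). With a covariate of D2 medium spiny neuron, cortical and interneuron markers the difference was -0.40 (adjusted p = 0.348). This covariate separated the groups compared, at -1.21 to -0.35 with stereotypy and 0.31 to 1.27 without it (mean scaled log2 level). The covariate and the group therefore cannot be told apart in this comparison.

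Cdh9, which binds synaptic partners in the hippocampus (mean 14.9 CPM per kilobase), was at 73.5, 41.9 and 52.6 CPM in the controls, 55.6, 54.7 and 74.97 CPM with stereotypy and 37.8, 38.96 and 44.9 CPM without it. The TrkB-deleted groups did not overlap, but the difference of 0.58 ± 0.19 between them did not pass (limma adjusted p = 0.0715). DESeq2 called this difference of Cdh9, and edgeR did not. Cdh22 (mean 12.8 CPM per kilobase) was at 57.5, 55.6 and 42.5 CPM, 47.01, 42.6 and 38.9 CPM and 54.8, 49.5 and 38.2 CPM in that order, with all groups overlapping. Cdh11, the next in level, had means of 58.1 ± 14.8, 56 ± 11.4 and 41.3 ± 4.46 CPM (SD, n = 3). Over the 12 type II genes tested, 2 fell without stereotypy against control, against 3.01% of all genes, and none rose, against 3.76%. The median difference was -0.16 beside 0.03 for all genes. Without overlap, 2 genes lay below the controls, against 10.6% of all genes, and 2 above, against 14.9%. The whole class of 13 genes summed to 374, 343 and 369 CPM in the controls, 315, 346 and 396 CPM with stereotypy and 282, 278 and 299 CPM without it. The sums without stereotypy lay below every other library, as Cdh8 alone did.

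Markers of medium spiny neurons moved in the same comparison. Of 6 general markers, 2 fell without stereotypy against control, beside 3.01% of all genes, among them Foxp1 with a difference of -0.52 (log2, limma adjusted p = 0.0091). The summed level of the 6 was 10337 to 12846 CPM in the controls and 8294 to 10672 CPM without stereotypy. Of 7 markers of the D1 type none passed, and 5 had an unadjusted p below 0.05, beside 3079 of 13695 genes. Their median difference was -0.42, and the sums were 1763 to 2381 and 1481 to 1836 CPM. With against without stereotypy, 4 of the 6 general markers rose, beside 6.61% of all genes, with a median difference of 0.40. Of the 7 D1 markers 1 rose, Drd1 by 0.57 (limma adjusted p = 0.0249). The part of these markers in the lower Cdh8 and Cdh6, and in the differences of Cdh8 and Pcdh17 between the TrkB-deleted groups, was not tested.

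Cdh5 (VE-cadherin), the type II cadherin that defines endothelium, was at 1.01, 0.283 and 0.828 CPM in the controls, 1.29, 4.47 and 2.07 CPM with stereotypy and 0.956, 0.672 and 0.419 CPM without it. It was highest in the stereotypy libraries, and the difference from control of 1.01 ± 0.30 did not pass (limma adjusted p = 0.0779). DESeq2 called Cdh5 with stereotypy against control and against no stereotypy, and edgeR called it in neither. The 8 vascular markers moved with it, all 8 with a difference above 0, beside 58.3% of all genes. Of these 1 passed, beside 3.58% rising among all genes (Pdgfrb, 0.79 on the log2 scale, limma adjusted p = 0.0416). The library with the highest Cdh5, stereotypy replicate 2, also had the highest vascular sum at 85.9 CPM. Cdh19 stayed below the filter.

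Of the other cadherins, only Cdh13 was tested. Cdh13 (T-cadherin), which is held in the membrane by a lipid anchor and lacks the tail that binds catenins, had a mean of 24.96 CPM per kilobase. It was at 249, 265 and 230.4 CPM in the controls, 283, 319 and 246 CPM with stereotypy and 323, 336 and 272 CPM without stereotypy. The libraries without stereotypy lay above the controls, with a difference of 0.32 ± 0.12 that did not pass (limma adjusted p = 0.134; 95% interval 0.06 to 0.57). Cdh23, the partner of Pcdh15 in the tip links of hair cells, was below the filter.

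**Figure D2:**
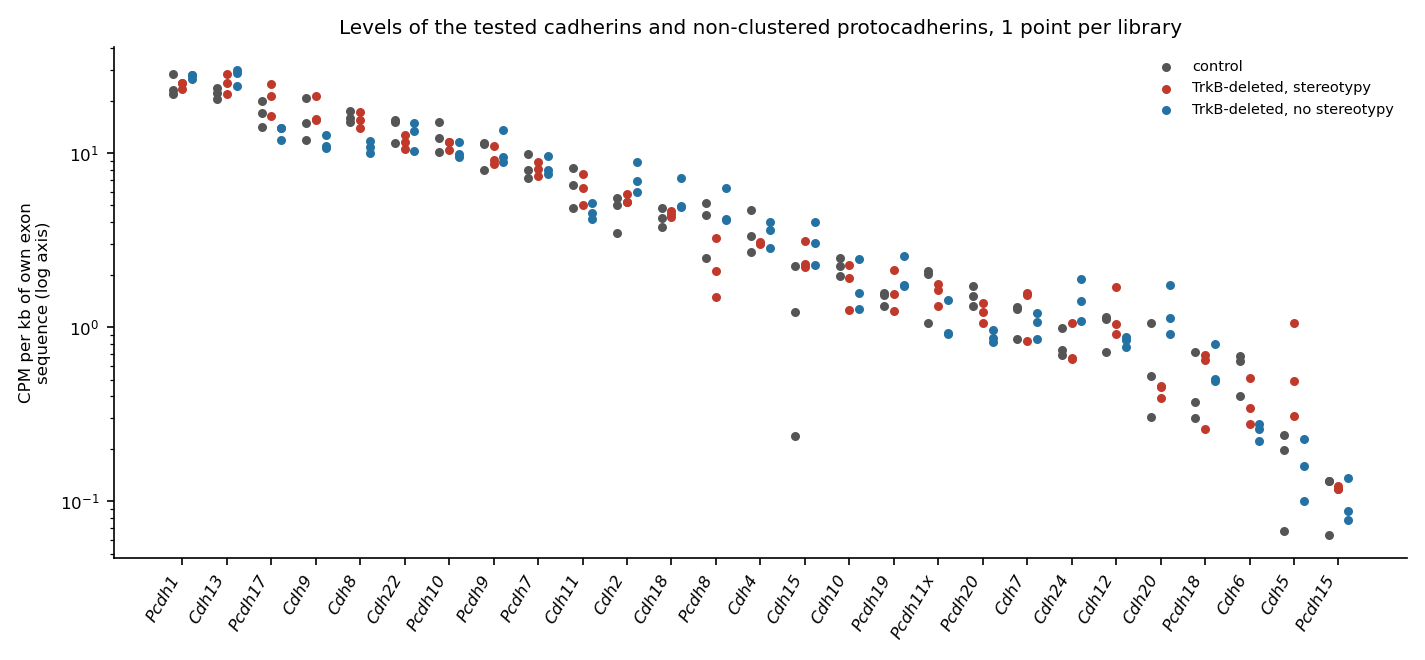
Level of each tested cadherin and non-clustered protocadherin in CPM per kilobase of its own exon sequence (vertical axis, logarithmic), ordered by mean, with 1 point per library coloured by group. Pcdh1 and Cdh13 lead at means of 25.5 and 24.96, and the spread between libraries of a group is small beside the range between genes.

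Among the non-clustered protocadherins, Pcdh1, Pcdh10, Pcdh7 and Pcdh9 were abundant and passed in no comparison. Pcdh1 (mean 25.5 CPM per kilobase) was at 201, 192 and 252 CPM in the controls, 205, 222 and 221 CPM with stereotypy and 247, 248 and 233 CPM without it, and the interval of its difference from control with stereotypy was -0.21 to 0.24. Pcdh10, a regulator of actin and of synapse elimination that is linked to autism (mean 11.3 CPM per kilobase), was at 162, 194 and 239.7 CPM, 164, 184 and 183 CPM and 151, 156 and 183 CPM in the same order. Its groups overlapped, with intervals of -0.44 to 0.15 with and -0.56 to 0.03 without stereotypy against control. Pcdh7, which binds an NMDA receptor subunit, had group means of 88.4 ± 14.4, 85.9 ± 8.29 and 88.9 ± 11.4 CPM (SD, n = 3). Pcdh9, of the same delta-1 subgroup, had means of 69.4 ± 13.03, 64.9 ± 8.31 and 72.2 ± 16.8 CPM. For the 4 delta-1 genes tested (Pcdh1, Pcdh7, Pcdh9 and Pcdh11x), no call was made in any of the comparisons by limma, edgeR or DESeq2, and 1 gene had an unadjusted p below 0.05 without stereotypy against control.

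Pcdh17, which together with Pcdh10 marks complementary zones of the striatum and acts at corticostriatal synapses (chr14:84443563-84539002, plus strand), differed between the TrkB-deleted groups. It was at 258, 183 and 220.3 CPM in the controls, 211, 278 and 323 CPM with stereotypy and 182, 154 and 181 CPM without it. Every stereotypy library lay above every library without stereotypy, and the controls overlapped the stereotypy group. The difference with against without stereotypy was 0.63 ± 0.16 (log2, SE; limma adjusted p = 0.0364), and it did not pass without stereotypy replicate 2 or 3 or any library without stereotypy (adjusted p 0.0508 to 0.136), nor with the GC and length trend removed, at 0.40 (adjusted p = 0.144). Pcdh8 (arcadlin), an activity-induced protocadherin that draws N-cadherin from the synaptic surface (chr14:79766775-79771312, minus strand), went the other way. Pcdh8 was at 19.98, 11.4 and 23.4 CPM in the controls, 9.596, 14.8 and 6.79 CPM with stereotypy and 18.7, 18.9 and 28.5 CPM without it. The stereotypy libraries lay below those without stereotypy, with a difference of -1.05 ± 0.30 (adjusted p = 0.0483), and the controls overlapped both. The call was lost without control replicate 1 or any TrkB-deleted library (adjusted p 0.0617 to 0.178), and with the covariate of other neurons the difference was -0.34 (adjusted p = 0.417). With the glial and vascular covariate it was -1.67 (adjusted p = 0.0292), the 1 call of a member kept under it.

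Markers of other neurons moved with Pcdh8 and Cdh20. The 5 cortical excitatory markers summed to 155 to 278 CPM in the stereotypy group and 571 to 1409 CPM in the group without it, against 268 to 842 CPM among controls. Of the 5, 1 (Slc17a7, with a difference of -1.93, limma adjusted p = 0.0246) was lower with than without stereotypy, beside 3.6% of all genes. In the same order, the 5 markers of D2 medium spiny neurons summed to 259 to 424, 597 to 1050.1 and 443 to 1433 CPM, and the 7 interneuron markers to 212 to 379, 316 to 475 and 216 to 469.7 CPM. None of either list passed. Between the TrkB-deleted groups 5 of 5 and 5 of 7 had an unadjusted p below 0.05, beside 4089 of 13695 genes. The library with the highest Pcdh8 and Cdh20 without stereotypy, replicate 3, also had the highest cortical sum, 1409 CPM. Their part in the difference was not tested, as the covariate of these markers cannot be told apart from the group.

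Pcdh20 (chr14:88464743-88471396, minus strand) was at 8.32, 7.27 and 9.44 CPM in the controls, 6.696, 5.82 and 7.601 CPM with stereotypy and 5.27, 4.76 and 4.49 CPM without it. The libraries without stereotypy lay below all others, and the difference from control was -0.67 ± 0.15 (log2, SE; limma adjusted p = 0.023). The call was lost without control replicate 1 or 3 or any library without stereotypy (adjusted p 0.0577 to 0.0786). Pcdh19, whose human counterpart is mutated in an epilepsy of girls, had means of 15.4 ± 1.42, 17.2 ± 4.81 and 20.98 ± 5.01 CPM (SD, n = 3) and did not pass. Over the 11 non-clustered genes tested, the median difference was -0.03 with and 0.01 without stereotypy against control, beside 0.05 and 0.03 for all genes; the latter was -0.02 with median-of-ratios and -0.03 with TMM rescaling.

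The clustered protocadherins lie on chromosome 18 in the order alpha, beta, gamma. The beta genes are known as genes of a single exon, and 88.0 to 100% of their 50-base stretches occur in no other member; for the alpha genes this share was 36.1 to 56.3% and for the gamma genes 34.7 to 73.1%, since the genes of each of these clusters share their last exons. How reads of shared exons were assigned is not given in the sources used here, so the alpha and gamma values are uncertain as values of single genes, and their sums depend on that assignment. In addition, 19 of the 92 members overlap exons of a gene on the other strand, whose reads could not be told apart without strand.

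The beta cluster was higher with stereotypy than in the controls. Of its 21 tested genes, 4 rose with stereotypy against control, beside 3.58% of all genes, and none fell, beside 1.53%. A difference above 0 was seen in 19, beside 58.3% of all genes. In 13 of the 21, every stereotypy library lay above every control, beside 18% of all genes, and in none below, beside 9.72%. The median difference was 0.39, beside 0.05 for all genes. Summed over its 22 genes, the cluster stood at 258, 261 and 276 CPM in the controls, 336, 349 and 374 CPM with stereotypy and 276, 303 and 274 CPM without stereotypy. The stereotypy sums lay above all others, and the remaining groups lay close together, the highest control at 276.0 CPM being above a pair of the libraries without stereotypy.

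The genes that rose lay in the distal stretch of the cluster, Pcdhb9 to Pcdhb22 (chromosome 18, 37400855 to 37524479). Pcdhb11 was at 5.58, 3.56 and 5.12 CPM in the controls, 7.27, 9.77 and 9.85 CPM with stereotypy and 5.69, 5.43 and 7.76 CPM without it. It rose by 0.80 ± 0.19 with stereotypy against control (log2 difference with SE; limma adjusted p = 0.0404), with no overlap. Pcdhb16 was at 9.61, 8.29 and 11.99 CPM, 14.9, 17.1 and 15.6 CPM and 10.6, 11.4 and 9.07 CPM in the same order, the stereotypy libraries lying above all others. Its rise against control was 0.64 ± 0.15 (adjusted p = 0.0378), and it was higher with than without stereotypy by 0.57 ± 0.15 (adjusted p = 0.0387). Pcdhb20, the most abundant beta gene (mean 11.7 CPM per kilobase), was at 37.3, 29.7 and 36.9 CPM, 47.9, 47.9 and 56.2 CPM and 38.6, 42.9 and 37.7 CPM. The stereotypy libraries again lay above all others, with a rise of 0.54 ± 0.12 against control (adjusted p = 0.0301). Pcdhb22, the last gene of the cluster, was at 29.4, 29.5 and 31.5 CPM, 39.8, 39.4 and 42.5 CPM and 30.9, 30.4 and 33.1 CPM. Its spread within groups was small; the rise was 0.42 ± 0.09 against control (adjusted p = 0.0301) and 0.36 ± 0.09 against no stereotypy (adjusted p = 0.0364).

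Each of these rises against control was lost when some libraries were left out. Pcdhb11 did not pass without control replicate 2 or 3, any stereotypy library, or no stereotypy replicate 1 or 2 (limma adjusted p 0.0551 to 0.145), and Pcdhb16 without control replicate 1 or 2, any stereotypy library, or no stereotypy replicate 1 or 2 (0.0567 to 0.143). Pcdhb20 was lost without control replicate 2, any stereotypy library or no stereotypy replicate 1 (0.0511 to 0.0953), and Pcdhb22 without each library other than no stereotypy replicate 3 (0.0511 to 0.099). The differences between the TrkB-deleted groups were lost without any library of either group for Pcdhb16 (adjusted p 0.0662 to 0.118), and for Pcdhb22 likewise except no stereotypy replicate 3 (0.067 to 0.128). With the same covariate of glia and vessels none of the 4 rises passed (adjusted p 0.362 to 0.786), at differences of 0.36 to 0.66.

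Pcdhb13 differed between the TrkB-deleted groups. It was at 9.44, 8.205 and 7.91 CPM in the controls, 12.7, 11.99 and 11.8 CPM with stereotypy and 8.04, 8.63 and 7.84 CPM without it, all stereotypy libraries lying above the rest. The difference with against without stereotypy was 0.52 ± 0.12 (log2, SE; limma adjusted p = 0.0294), lost without any TrkB-deleted library (adjusted p 0.0537 to 0.0992), and that against control just missed the threshold at 0.47 ± 0.12 (adjusted p = 0.0514). Pcdhb17 (mean 8.24 CPM per kilobase) was at 35.4, 29.3 and 34.9 CPM in the controls, 42.7, 44.7 and 46.9 CPM with stereotypy and 37.6, 43.5 and 30.7 CPM without it. Pcdhb9 (mean 5.76 CPM per kilobase) was at 13.3, 11.97 and 17.8 CPM, 19.9, 20.7 and 19.1 CPM and 17.99, 19.5 and 18.1 CPM. For both genes the stereotypy libraries lay above the controls, and the differences of 0.42 ± 0.13 and 0.46 ± 0.14 did not pass (adjusted p = 0.0848 and 0.0819).

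Split by position after the values were seen, the 14 genes from Pcdhb9 to Pcdhb22 had a median difference of 0.42 with stereotypy against control, all 14 above 0 and 11 without overlap, and the 7 tested genes from Pcdhb2 to Pcdhb8 a median of 0.12 with 5 above 0 and 2 without overlap. Of all genes 58.3% were above 0 and 18% lay above the controls without overlap, so the 7 were not below these shares. The split gets no test. Without stereotypy against control, the median over the 21 beta genes was 0.06, beside 0.03 for all genes. No gene passed (1 at an unadjusted p below 0.05, beside 3079 of 13695 genes, and none by DESeq2 or edgeR). With against without stereotypy the median was 0.27, beside 0.02 for all genes. All 21 genes had a difference above 0, beside 52.3%, 8 did not overlap, beside 20.8%, and 3 rose, beside 6.61%. Correcting each library for its dependence on the GC content and length of transcripts, an alternative chosen after the data were seen, left 18 of 21 above 0 and lowered this median to 0.14, and lowered that of stereotypy against control to 0.34.

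Astrocyte and vascular markers were higher in the same libraries. With stereotypy against control, 5 of 10 astrocyte markers rose, beside 3.58% of all genes. Among them were Slc1a3 by 1.18, Aqp4 by 1.18, Gja1 by 1.17 and Aldoc by 0.53 (log2 differences, limma adjusted p = 0.0155, 0.0155, 0.0123 and 0.0366). The sums of the 10 markers, given above, did not overlap those of either other group. Beside these sums, the median of the beta cluster with the glial and vascular covariate was 0.50 with stereotypy against control and 0.35 against no stereotypy. The covariate itself separated these groups, at -0.90 to -0.30 in the controls and 0.37 to 0.98 with stereotypy (mean scaled log2 level of the markers), so the covariate and the group cannot be told apart, and the part of glia and vessels in the beta cluster's difference was not tested further.

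**Figure D3:**
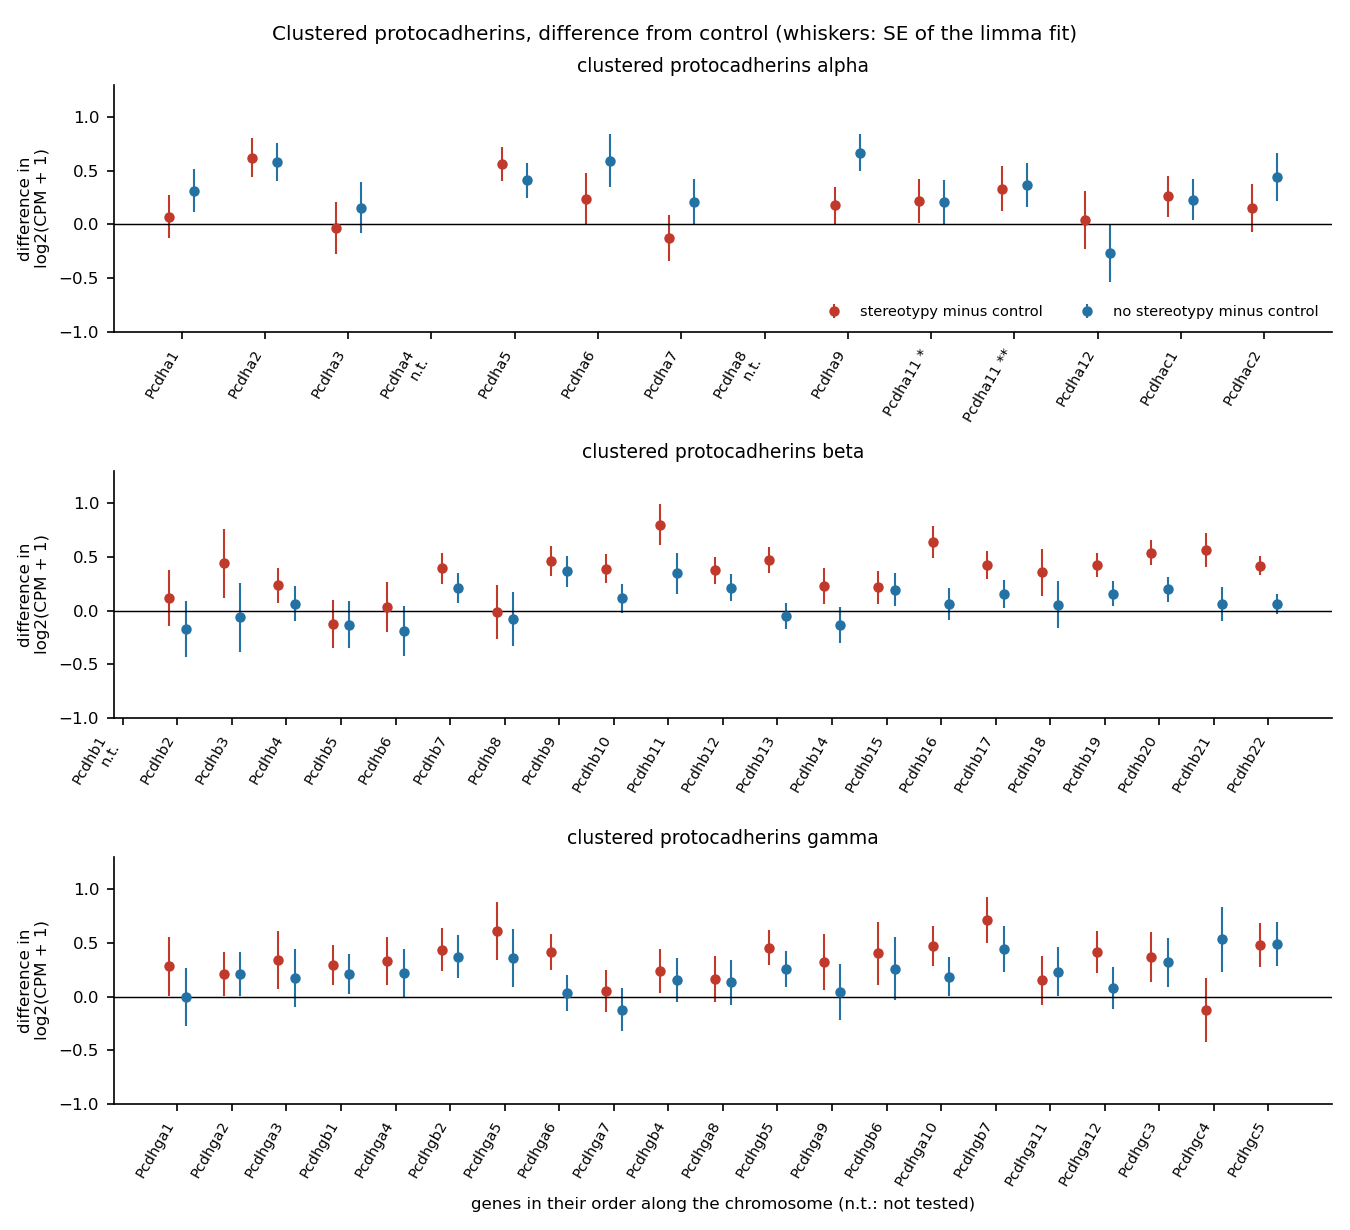
Difference from control in log2(CPM + 1) (vertical axis) of each clustered protocadherin, in gene order along chromosome 18 (horizontal axis), for stereotypy (red) and no stereotypy (blue). Points are limma estimates, whiskers are SE, n.t. marks genes not tested and the asterisks tell apart the 2 identifiers that share the symbol Pcdha11. From Pcdhb9 to Pcdhb22 every red point is above 0, beside 58.3% of all genes, with a median of 0.42.

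In the gamma cluster no gene passed in the main fit. Pcdhgc5, a gene of the C type that is used outside the random choice and is tied to inhibitory synapses, was its most abundant gene (mean 21.2 CPM per kilobase). It was at 55.1, 74.5 and 106 CPM in the controls, 85.1, 116 and 121 CPM with stereotypy and 108, 110.2 and 103 CPM without it. The groups overlapped, the controls were widely spread, and the differences of 0.48 ± 0.20 and 0.49 ± 0.20 from control did not pass (limma adjusted p = 0.179 and 0.183). Pcdhga6 (mean 4.17 CPM per kilobase) was at 11.1, 8.69 and 9.08 CPM, 10.4, 14.4 and 14.8 CPM and 9.77, 11.1 and 8.67 CPM, and Pcdhga4 (mean 3.89) at 3.72, 5.404 and 6.65 CPM, 5.33, 6.11 and 9.19 CPM and 5.25, 7.37 and 5.94 CPM. In both genes the groups overlapped in every comparison. Pcdhgc4, which supports the survival of cortical interneurons, had means of 3.34 ± 1.47, 3.02 ± 1.596 and 5.03 ± 0.559 CPM (SD, n = 3).

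Of the 21 gamma genes, all tested, none passed by the main limma fit, edgeR or DESeq2 in any comparison. Without control replicate 3, limma called Pcdhgc5 in each group against control and Pcdhgb7 with stereotypy. At an unadjusted p below 0.05 were 6 for stereotypy and 1 for no stereotypy against control, beside 3288 and 3079 of 13695 genes. The median difference was 0.34 with stereotypy against control, with 20 of 21 above 0, beside 58.3% of all genes, and 2 above the controls without overlap, beside 18%. Without stereotypy the median was 0.21, with 19 above 0, beside 54.7%, and 1 above the controls without overlap, beside 14.9%. The cluster summed to 153, 174 and 229 CPM in the controls, 199.5, 255 and 285 CPM with stereotypy and 238, 241 and 211 CPM without it. The highest control lay inside both other groups.

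In the alpha cluster the differences from control were as large without stereotypy as with it, and all levels were low. Pcdhac2, of the C type and known from the spacing of serotonergic axons (mean 4.66 CPM per kilobase), was at 7.75, 12.1 and 17.6 CPM in the controls, 12.9, 13.8 and 13.3 CPM with stereotypy and 17.99, 15.8 and 15.6 CPM without it, with overlap against control in both groups. Pcdha12 (mean 3.03) was at 5.06, 10.5 and 8.34 CPM, 6.55, 7.04 and 10.7 CPM and 5.71, 8.68 and 4.83 CPM, also overlapping. Pcdha5 (mean 2.42) was at 3.83, 4.13 and 4.81 CPM, 5.59, 6.68 and 8.12 CPM and 5.82, 6.55 and 5.54 CPM. Its controls lay below all TrkB-deleted libraries, and the differences of 0.56 ± 0.16 and 0.41 ± 0.16 did not pass (limma adjusted p = 0.0665 and 0.157). DESeq2 called Pcdha5 with stereotypy against control, and edgeR did not.

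Pcdha2 was the member that rose in the mean of both TrkB-deleted groups. It was at 1.48, 2.52 and 2.33 CPM in the controls, 3.22, 4.15 and 3.84 CPM with stereotypy and 3.95, 2.997 and 3.89 CPM without it. The controls lay below all other libraries, with a rise of 0.60 ± 0.16 (log2 difference with SE; limma adjusted p = 0.0495) that was lost whichever library was left out (adjusted p 0.0556 to 0.17). Pcdha9 was at 2.93, 3.23 and 3.28 CPM, 2.69, 3.89 and 4.72 CPM and 5.53, 5.27 and 5.94 CPM. It rose without stereotypy against control by 0.67 ± 0.17 (adjusted p = 0.0449), with the libraries without stereotypy above all others, and the call did not hold without any control, stereotypy replicate 2 or any library without stereotypy (adjusted p 0.0655 to 0.14). With a pseudocount of 4 the differences were 0.33 for Pcdha2 and 0.42 for Pcdha9. Over the 12 alpha genes tested, the median difference was 0.20 with and 0.34 without stereotypy against control. Differences above 0 were seen in 10 and 11 of them, beside 58.3% and 54.7% of all genes. Without overlap above the controls lay 2 and 4 of them, beside 18% and 14.9% of all genes. The sums were 32.8, 45.1 and 57.5 CPM in the controls, 46.7, 53.96 and 58.5 CPM with stereotypy and 59.6, 59.5 and 56.1 CPM without it.

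**Figure D4:**
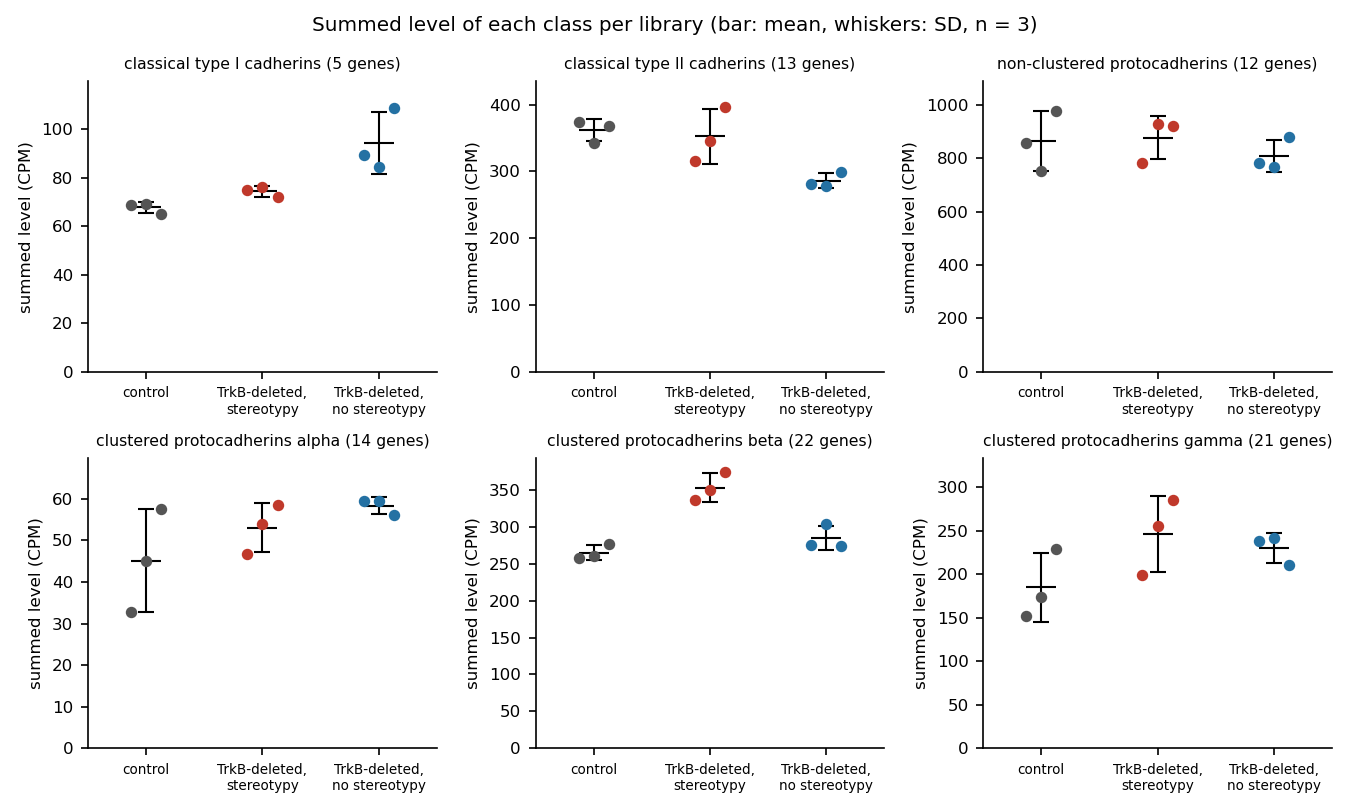
Summed level in CPM (vertical axes, linear from 0) of 6 classes of members in each library, by group; bars are means and whiskers are SD (n = 3). The beta cluster is the class whose stereotypy libraries (336 to 374 CPM) lie above all others, and the type II cadherins are the class whose libraries without stereotypy (278 to 299 CPM) lie below all others.

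The genes that act on the clustered promoters were looked at next, as a list that includes cohesin and its loaders, CTCF and silencing factors. Of 14 tested, 4 rose with stereotypy against control and none fell, beside 3.58% rising among all genes, with a median difference of 0.29. Smc1a, a core subunit of cohesin, was at 118, 93.9 and 102 CPM in the controls, 155, 167 and 158 CPM with stereotypy and 155, 156 and 149.8 CPM without it. It rose by 0.61 ± 0.09 with and 0.56 ± 0.09 without stereotypy (log2 differences with SE; limma adjusted p = 0.00708 and 0.00713). Nipbl, the cohesin loader, was at 31.9, 26.8 and 25.8 CPM, 39.3, 39.9 and 43.7 CPM and 21.1, 23.2 and 26.9 CPM, and rose with stereotypy by 0.53 ± 0.12 (adjusted p = 0.0352). The cohesin subunit Stag1 rose by 0.50 (adjusted p = 0.0317), and Setdb1, a histone methyltransferase of gene silencing, by 0.39 (adjusted p = 0.0428). Of the 9 fits that leave out 1 library, Smc1a passed in all 9 in both groups, while with stereotypy Nipbl and Stag1 passed in 3 and Setdb1 in 1. With the glial and vascular covariate none of the 4 rises with stereotypy passed, and Smc1a was at a limma adjusted p of 0.346 with and 0.0507 without stereotypy. Nipbl and Setdb1 with stereotypy also did not pass by edgeR, with median-of-ratios rescaling or with the GC and length trend removed.

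Between the TrkB-deleted groups 5 of these 14 genes were higher with stereotypy, beside 6.61% of all genes. The largest differences were those of Nipbl (0.77), Stag1 (0.60), Stag2 (0.58) and the cohesin release factor Wapl (0.48; log2, limma adjusted p = 0.0154, 0.0206, 0.024 and 0.0225), each kept in 5 of the 9 fits that leave out 1 library. None of the 4 passed with the covariate of other neurons, which separated these groups and cannot be told apart from them. Nor did any pass with the GC and length trend removed, which lowered the differences to 0.46, 0.33, 0.17 and 0.20. Ctcf itself was at 85.9, 86.8 and 84.7 CPM in the controls, 96.9, 99.5 and 105 CPM with stereotypy and 84, 82.2 and 90.5 CPM without it, a difference of 0.23 ± 0.08 from control that did not pass (adjusted p = 0.116). Without stereotypy against control only Smc1a passed, and the median was -0.08, or 0.02 with the GC and length trend removed.

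Of the catenins, which tie cadherins to actin, none of 10 tested passed against control in either group by limma. An unadjusted p below 0.05 was seen in 2 with and 4 without stereotypy, beside 3288 and 3079 of 13695 genes. The log2 differences from control ranged from -0.91 to 0.42 with and from -1.14 to 0.43 without stereotypy. Ctnnb1 (beta-catenin), the most abundant, had means of 575 ± 23.4, 652 ± 48.8 and 685 ± 24 CPM (SD, n = 3). Of the 10, 1 was higher with than without stereotypy, beside 6.61% of all genes. This was Vcl (vinculin), by 0.51 ± 0.12 (limma adjusted p = 0.0273), which passed in 3 of the 9 fits that leave out 1 library. Among 12 effectors of protocadherins, mostly subunits of the WAVE complex that starts actin branching, 3 fell without stereotypy against control and none rose, beside 3.01% falling among all genes. These were Abi1 with a difference of -0.42, Nckap1 (the subunit that binds Pcdh10) with -0.41 and Abi2 with -0.37 (log2; adjusted p = 0.012, 0.0119 and 0.0452). Abi1 and Nckap1 passed in 7 of the 9 fits that leave out 1 library, and Abi2 in 2. With stereotypy against control, Brk1 fell, with a difference of -0.44 (limma adjusted p = 0.018), and the other 11 did not pass, beside 1.53% falling among all genes. Abi1 and Abi2 were higher with than without stereotypy, by 0.43 and 0.41 (limma adjusted p = 0.0206 and 0.0299), each passing in 5 of the 9 fits. With the glial and vascular covariate none of the calls of catenins and effectors named here passed. Those between the TrkB-deleted groups (Vcl, Abi1 and Abi2) were also lost with the GC and length trend removed. They were lost as well with the covariate of other neurons, which cannot be told apart from these groups.

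**Figure D5:**
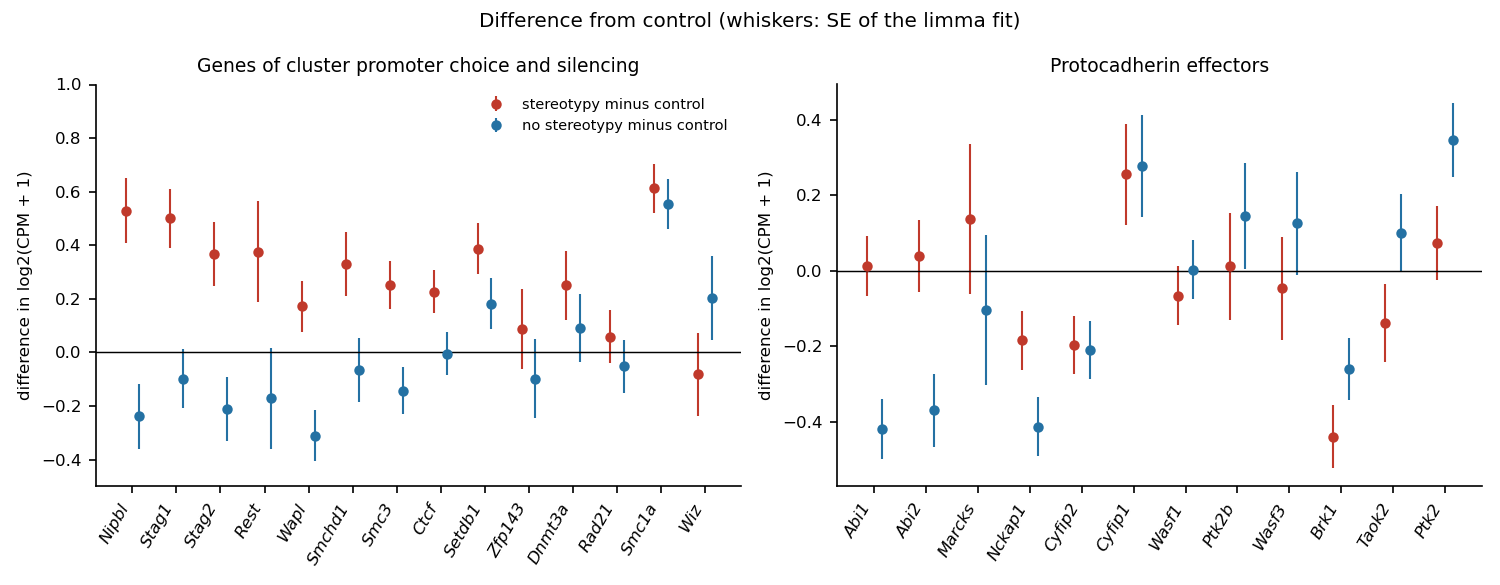
Difference from control in log2(CPM + 1) (vertical axes) for the 14 tested genes of promoter choice and silencing (left) and the 12 protocadherin effectors (right), with stereotypy (red) and without it (blue). Points are limma estimates and whiskers are SE. On the left 13 of 14 red points are above 0, beside 58.3% of all genes. On the right Abi1, Abi2 and Nckap1 have the lowest blue points, at -0.42, -0.37 and -0.41.

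Of 13 tested genes of other cadherin families, 2 rose with stereotypy against control, the giant cadherin Fat4 by 1.01 ± 0.22 and its partner Dchs1 by 0.96 ± 0.24 (log2 differences with SE; limma adjusted p = 0.0325 and 0.0472), beside 3.58% rising among all genes. Of the 9 fits that leave out 1 library, Fat4 passed in 3 and Dchs1 in 2; neither passed by edgeR or with the glial and vascular covariate, and Dchs1 did not pass under either rescaling (TMM or median of ratios). Fat4 was at 3.23, 1.58 and 1.53 CPM in the controls, 6.02, 5.14 and 4.21 CPM with stereotypy and 1.68, 1.96 and 2.59 CPM without it. Clstn1 (calsyntenin-1, a cargo adaptor of axonal transport) was lower with than without stereotypy, with a difference of -0.35 ± 0.09 (limma adjusted p = 0.0403). It passed in 3 of the 9 fits that leave out 1 library, and not with either covariate or with the GC and length trend removed. None of 7 tested proteases that shed or cleave cadherins, among them Adam10, passed in any comparison by limma. At an unadjusted p below 0.05 were 1 in each group against control and 3 between the TrkB-deleted groups. Of all 13695 genes, 3288 with and 3079 without stereotypy against control and 4089 between the TrkB-deleted groups had such a p.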

How the data were processed

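RNA bound to HA-tagged ribosomes was sequenced from 9 libraries (NEBNext Ultra kit, per the labels' protocols). The authors deposited levels per Ensembl gene in CPM, per the file headers; the aligner was TopHat and the build GRCm38, per the submitters' processing notes, while which counter, annotation and strand setting were used is not given in the sources used here. Of the values above 0, 100% in each library were whole multiples of 1 read within 0.1 reads, so reads were recovered; they were used for edgeR and DESeq2 only. A count of 0 allows up to 0.0739 to 0.111 CPM (3 reads of a library; counting error only). Symbols came from GENCODE M21 for 47310 identifiers; 419 had no match, with at most 0.0632% of reads.

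The 13695 genes that reached 1 CPM in 3 or more libraries entered 1 limma fit of log2(CPM + 1) to 9 libraries with a variance trend and Benjamini-Hochberg adjustment. The residual degrees of freedom were 6. Levels per kilobase used exon bases that no gene on the same strand shares (at least 200). P-values measure the spread between libraries. Values by library are given for each member that passed in any comparison and for the 3 members of each class with the highest mean CPM per kilobase; of partner and marker lists, up to 4 genes that passed are named, except 1 marker that is not reported here. The members and lists were chosen with earlier results of these data known. Alternatives were pseudocounts of 0.25 and 4, a filter on the mean (5 CPM or more) or none, rescaling by TMM or median of ratios, the replicate number as a block, a glial and vascular covariate, fits to 6 libraries, leaving out each library, and edgeR (quasi-likelihood) and DESeq2; removing a trend over GC content and length and a covariate of other neurons were added after seeing the data. Replicate numbers were not treated as pairs in the main fit. The correlations of same-numbered deviations ranged from -0.0798 to 0.406. Libraries of unlike number were not correlated for reference, so these values cannot decide whether the numbers pair samples. The main limma fit and edgeR were run on simulated data, for stereotypy against control only. DESeq2, the F test, the covariates and the trend removal were not tested in this way. Versions were R 4.3.3, limma 3.58.1, edgeR 4.0.16, DESeq2 1.42.0, Python 3.11.15, pandas 2.3.3, numpy 2.4.6 and matplotlib 3.10.9. Promoter sequences are RefSeq windows of GRCm38.p6.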

Additional observations from a re-analysis of the deposited data

Results flagged for a closer look

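The TrkB-deleted groups with and without stereotypy differed from each other in 7 of the 81 members tested, beside 10.2% of all genes (limma, adjusted p below 0.05). The groups were split by behavior, and they also differed in the level of Ntrk2 itself. Ntrk2 was higher with stereotypy by 1.049 (log2 difference; adjusted p = 0.0206). The astrocyte marker sums differed between these groups too, at 636 to 667 CPM with and 449 to 564 CPM without stereotypy. Which cells the remaining Ntrk2 came from was not tested, nor whether the deletion itself acted differently in these groups. The part of the deletion in the differences of members was not tested either. Higher with stereotypy were Cdh8 by 0.51 (log2 difference; adjusted p = 0.0225), Pcdhb13 by 0.52 (adjusted p = 0.0294), Pcdhb16 by 0.57 (adjusted p = 0.0387), Pcdhb22 by 0.36 (adjusted p = 0.0364) and Pcdh17 by 0.63 (adjusted p = 0.0364). Cdh20 and Pcdh8 were lower with stereotypy, with differences of -1.10 and -1.05 (adjusted p = 0.0413 and 0.0483). With the GC and length trend removed or with the covariate of other neurons none of the 7 passed, and with the glial and vascular covariate 1 did (Pcdh8). The covariate of other neurons separated these groups, so it cannot be told apart from the group. Removal of the trend lowered Cdh8 to 0.30, Pcdhb16 to 0.37, Pcdhb22 to 0.18 and Pcdh17 to 0.40, and with the covariate of other neurons Cdh20 was at -0.40 and Pcdh8 at -0.34. For all 7 the 3 libraries of one group lay beyond the 3 of the other, beside 20.8% of all genes higher and 17.5% lower without overlap. The 7 were picked by a test on these same libraries, so this adds no support. Since both groups are set against the same controls, the difference between their differences from control equals stereotypy against no stereotypy.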

How the results depend on the processing

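No called difference of a named gene changed sign under the alternatives run, nor did the medians of the beta cluster in the comparisons of stereotypy, at 0.34 to 0.50 with stereotypy against control and 0.14 to 0.35 against no stereotypy. Counts of called members moved more. For the comparisons of stereotypy and of no stereotypy with control, of stereotypy with no stereotypy and of both with control, and for the F test, the reported counts were 4, 4, 7, 1 and 8. Leaving out 1 library gave 0 to 5, 1 to 6, 0 to 10, 0 to 3 and 1 to 13. Without a filter they were 1, 1, 2, 0 and 2, and with the glial and vascular covariate 0, 0, 1, 0 and 3; a mean of at least 5 CPM gave 2 for the second and 0 for the fourth, and a pseudocount of 0.25 gave 0 for the fourth. Fits to the 6 libraries compared, with fewer samples, gave 0 for the first. The replicate block gave 7 for the second and 13 for the last. Whether the replicate numbers pair samples is not known, so these counts are not taken as stronger evidence. By edgeR the counts were 2, 3, 7, 2 and 8, and by DESeq2 9, 5, 10, 5 and 17. Removal of the GC and length trend gave 2, 3, 0, 6 and 3, and the covariate of other neurons 0 for the third and 9 for the fourth. Rescaling by median of ratios or TMM shifted the median of all genes by at most 0.05, left 18 and 20 of 21 beta genes above 0 in the comparisons with control and no stereotypy, and split the calls without stereotypy as 0 rising and 3 falling against 1 and 3. In both groups against control it called Pcdh20 falling in place of Pcdha2. Rescaling turned the median of the non-clustered genes without stereotypy from 0.01 to -0.02 (median of ratios) or -0.03 (TMM), and removal of the GC and length trend turned that of the promoter genes from -0.08 to 0.02. The cause of these changes was not tested. Of the 16 calls of members, edgeR kept 12 and DESeq2 all 16, and none passed under all alternatives. A library's single read is worth more of the level in a low gene, so counting error is a larger part of the values of the alpha cluster; its share was not measured.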
